A study of Homo sapiens with 4 samples.

Results

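The genes described here are 10 enzymes that make or use nicotinamide adenine dinucleotide (NAD), out of 35609 genes in the deposited data of microglia-like cells with and without SHIP1. They are NMNAT1, NMNAT2, NMNAT3, NAMPT, NAPRT, NADSYN1, QPRT, CD38, SARM1 and NNMT. NMNAT3 led to the choice, because its estimated counts and its TPM (a level per length, scaled to a fixed total in each library) were higher in the edited cells by different amounts. Its difference is therefore given as a description with no test, and the other members were listed for their role in the same pathway. Of the 10 genes, 9 passed the filter on low counts and NMNAT2 did not.

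The cells were iMGL, microglia-like cells differentiated from the established human induced pluripotent stem cell line WTC11. S1KO cells were edited in INPP5D, the gene of the inositol 5-phosphatase SHIP1, and WT cells were the unedited controls of the same line, with 2 libraries of poly-A RNA per genotype. The design text names a pair of clones per genotype and asks whether cells without SHIP1 still become microglia. The labels do not tie a library to a clone or to a separate differentiation, so p-values measure only the spread between these libraries, and a difference between clones cannot be told apart from one between genotypes.

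NAD is a cofactor of redox reactions, and it is also consumed as a substrate by sirtuins, poly-ADP-ribose polymerases, CD38 and SARM1, which release nicotinamide. Cells rebuild it by salvage of nicotinamide through NAMPT, from nicotinic acid through NAPRT and NADSYN1, and from tryptophan through the kynurenine pathway and QPRT. These routes meet at the NMNAT enzymes, which join a mononucleotide to the adenylate of ATP: NMNAT1 in the nucleus, NMNAT2 in the cytosol and on the Golgi, chiefly of neurons, and NMNAT3 in mitochondria.

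The 4 libraries held 21516813 to 25927881 estimated counts, and mitochondrially encoded genes took 52.3% and 39.2% of them in S1KO against 14.2% and 18.9% in WT. The counts outside those genes numbered 9319000 and 12891104 in S1KO and 18055337 and 20540060 in WT. Nuclear genes in S1KO thus rest on fewer reads. The edited gene INPP5D stood at 81.0 and 97.6 CPM (counts scaled for library size by the TMM method) in S1KO and at 355.6 and 440.8 CPM in WT. It fell by 2.16 on the log2 scale (SE 0.21, edgeR's quasi-likelihood test, adjusted p = 0.0185), a call that was lost without S1KO 1 or without S1KO 2, where edgeR called 0 genes of any kind. All 10 microglia and macrophage markers were above 1 CPM in all 4 libraries, and their summed level was 2682 and 2759 CPM in S1KO against 3820 and 4182 CPM in WT. The markers did not all move together. SPI1, AIF1 and CD68 overlapped between genotypes, with AIF1 at 317.4 and 291.4 CPM in S1KO and 307.1 and 247.4 CPM in WT. The other markers of this list were lower in both S1KO libraries. All 5 pluripotency markers were higher in both S1KO libraries, at a summed 24.5 and 28.5 CPM in S1KO and 7.18 and 12.2 CPM in WT. Markers of mesenchymal cells summed to 7.14 and 18.9 CPM in S1KO, to 3226 CPM in WT 1 and to 2.78 CPM in WT 2, with LUM, THY1 and COL3A1 at 0 in WT 2. Neuronal markers summed to 9.44 to 15.4 CPM, with SNAP25 and STMN2 at 0 in 3 of the 4 libraries. RBFOX3 was at 2.00 to 5.45 CPM, ELAVL4 at 3.06 to 6.32 CPM, and TUBB3 reached 7.26 CPM in WT 1. Markers of other blood cells summed to 2.23 to 3.43 CPM, with MPO and ELANE at 0 in all 4 libraries. CD34 was at 1.21 and 1.93 CPM in S1KO and 0.465 and 0.638 CPM in WT. The part of these differences in the results below was not tested except where a value is given.

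NMNAT3 was about 6-fold higher in S1KO by counts. Nearly all of its counts, and all of the increase, were assigned to a single annotated transcript, NMNAT3-219. NMNAT3 (ENSG00000163864) lies at chr3:139560180-139678017 on the minus strand in GRCh38, and 21 of its transcripts were quantified. It had 1768 and 1640 estimated counts in S1KO against 398.5 and 525.2 in WT, which is 119 and 77.1 TMM-scaled CPM in S1KO and 14.3 and 16.8 CPM in WT. Both S1KO libraries stood far above both WT libraries, and S1KO 1 was the highest. In bulk RNA, fewer cells of a type and less RNA per cell cannot be told apart, and likewise for more of either. The fitted log2 fold change was 2.66 (SE 0.26).

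**Figure D1:**
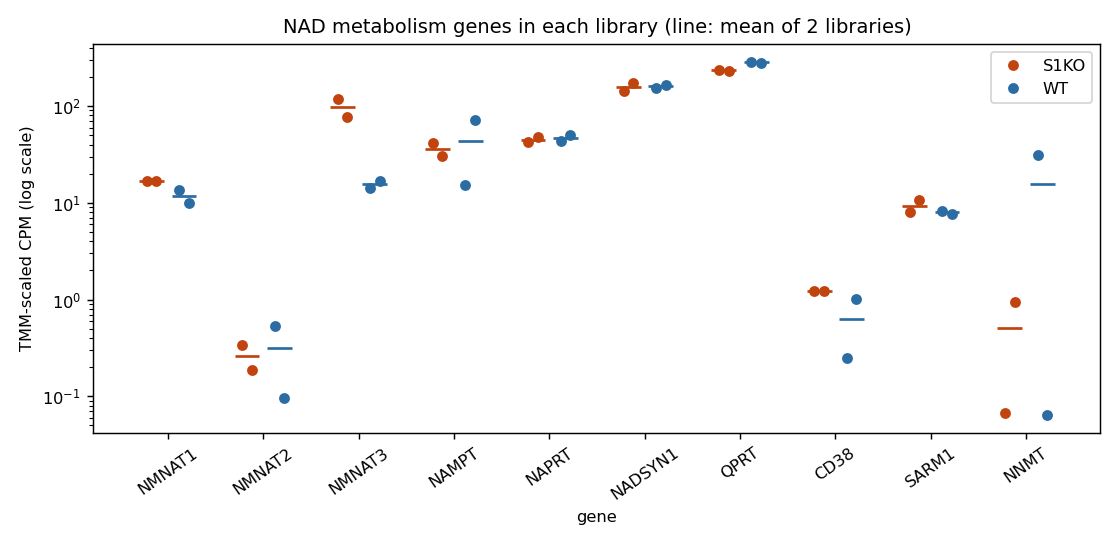
TMM-scaled CPM (log axis) of the 10 NAD enzymes in each library, S1KO in red and WT in blue, with a line at the mean of 2 libraries. NMNAT3 was at 119 and 77.1 CPM in S1KO and at 14.3 and 16.8 CPM in WT, while NADSYN1 and NAPRT overlapped between genotypes and NNMT was high in WT 1 alone.

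NMNAT3-219 (ENST00000645507, 6881 bases) is annotated as protein coding and differs from the shorter NMNAT3-202 in its 3′ part. The first coding exons are the same in NMNAT3-219 and NMNAT3-202, after which NMNAT3-219 runs into an exon 5 and an exon 6 of its own, and NMNAT3-202 into another last exon. The coding part of NMNAT3-219 was 471 bases long (157 codons over 6 exons in all), against 645 bases (215 codons, 5 exons) in NMNAT3-202. The coding pieces are shown to let a reader see where the annotated transcripts part. They are given 5′ to 3′ on the minus strand of chromosome 3 (GRCh38, sequences of GENCODE 29), with the start codon in capitals. The shared pieces lie at chr3:139578872-139579053 and chr3:139573598-139573680. Exon 5 of NMNAT3-219 lies at chr3:139572107-139572233 and the first 150 coding bases of exon 5 of NMNAT3-202 at chr3:139561243-139561392.
shared first coding exon: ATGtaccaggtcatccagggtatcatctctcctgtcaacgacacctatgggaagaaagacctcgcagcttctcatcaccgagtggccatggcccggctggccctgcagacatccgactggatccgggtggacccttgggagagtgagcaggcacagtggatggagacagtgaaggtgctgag
shared second coding exon: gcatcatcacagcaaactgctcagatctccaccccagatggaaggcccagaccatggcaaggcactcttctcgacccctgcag
NMNAT3-219 exon 5: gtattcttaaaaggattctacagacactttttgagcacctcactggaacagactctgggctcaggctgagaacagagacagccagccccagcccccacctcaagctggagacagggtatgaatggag
NMNAT3-202 exon 5, start of the coding part: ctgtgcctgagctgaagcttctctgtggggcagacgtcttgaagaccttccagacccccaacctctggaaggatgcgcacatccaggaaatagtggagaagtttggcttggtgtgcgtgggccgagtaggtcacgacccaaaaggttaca

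Exon 6 of NMNAT3-219, whose sequence is not shown, is 6086 bases long or 88.4% of the transcript, of which 79 bases are coding and 6007 are not. Sharing of its sequence with other genes was measured by counting the 31-base words of each transcript that also occur, on either strand, in GENCODE 29 transcripts of other genes. Exon 6 shared 3366 of its 6056 words (55.6%), whereas the other exons of NMNAT3-219 shared 0%. Over the whole transcript 3368 of 6851 words (49.2%) were shared, with transcripts of 422 other genes, and most of all with HELLPAR, a long noncoding RNA (1545 words). No HELLPAR transcript sharing these words was among those quantified here, where TMEM45A-207 shared the most (886 words). NMNAT3-202 and NMNAT3-203, which end in a different last exon, shared 0%. A read that lies in shared words can be assigned to any of the quantified transcripts that hold them, so the level of NMNAT3-219 is uncertain. The shared words were counted over all GENCODE 29 transcripts, quantified here or not. Their percentage therefore does not measure how many reads are affected.

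**Figure D2:**
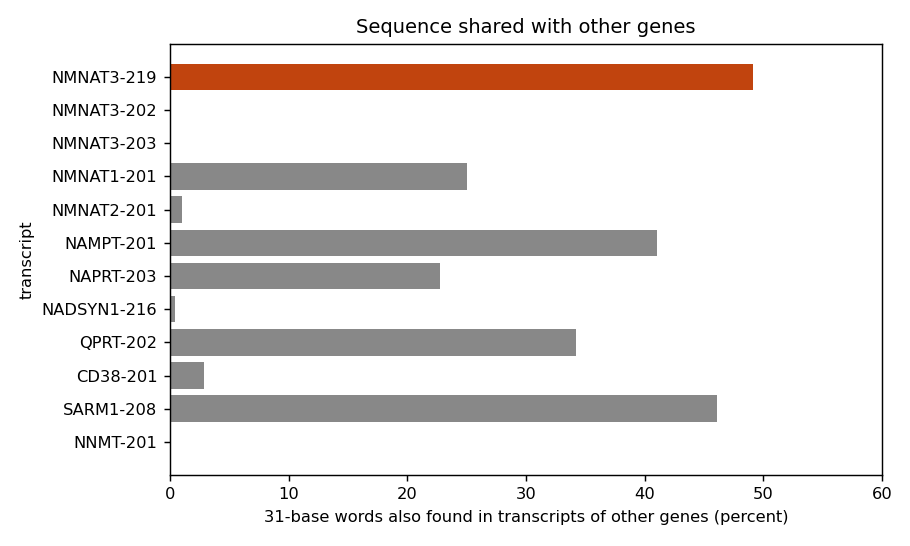
Percent of 31-base words also found in transcripts of other genes, for NMNAT3 transcripts and the leading transcript of each other enzyme. NMNAT3-219 reached 49.2% and SARM1-208 46.1%, while NMNAT3-202, NMNAT3-203 and NNMT-201 were at 0%.

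NMNAT3-219 alone had 1759 and 1626 estimated counts in S1KO, against 365.5 and 498.2 in WT. On the CPM scale this was 119 and 76.4 in S1KO against 13.1 and 15.9 in WT, or 97.5 ± 29.8 in S1KO and 14.5 ± 2.0 in WT (SD, n = 2 each), a ratio of 6.73. Its share of NMNAT3 counts was 99.5% in S1KO 1 (95% Wilson interval 99.0 to 99.7) and 99.1% in S1KO 2 (98.6 to 99.5), against 91.7% in WT 1 (88.6 to 94.0) and 94.8% in WT 2 (92.6 to 96.4). These intervals cover counting error only. NMNAT3-219 therefore dominated in both genotypes, and its share was higher in both S1KO libraries.

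The other 20 NMNAT3 transcripts together did not share the increase. They summed to 9.0 and 14.0 estimated counts in S1KO and to 32.9 and 27.1 in WT, and 12 of them were at 0 in all 4 libraries. Scaled for depth this was 0.607 and 0.658 CPM in S1KO against 1.18 and 0.863 CPM in WT, so both S1KO libraries were the lower ones. With NMNAT3-219 left out, a fit added once the values were known, the fitted log2 fold change of NMNAT3 was -0.68 (SE 0.56) in place of 2.66. Reads in the exons that NMNAT3-219 shares with other NMNAT3 transcripts, such as NMNAT3-202, are divided among them by estimate. The counts of NMNAT3-219 and of the rest are therefore not independent. NMNAT3-202 had 0.0 and 5.1 counts in S1KO and 16.6 and 12.4 in WT. NMNAT3-203 had 9.0 and 8.9 counts in S1KO and 0.0 in both WT libraries. These counts are too low to describe a switch between the short transcripts.

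**Figure D3:**
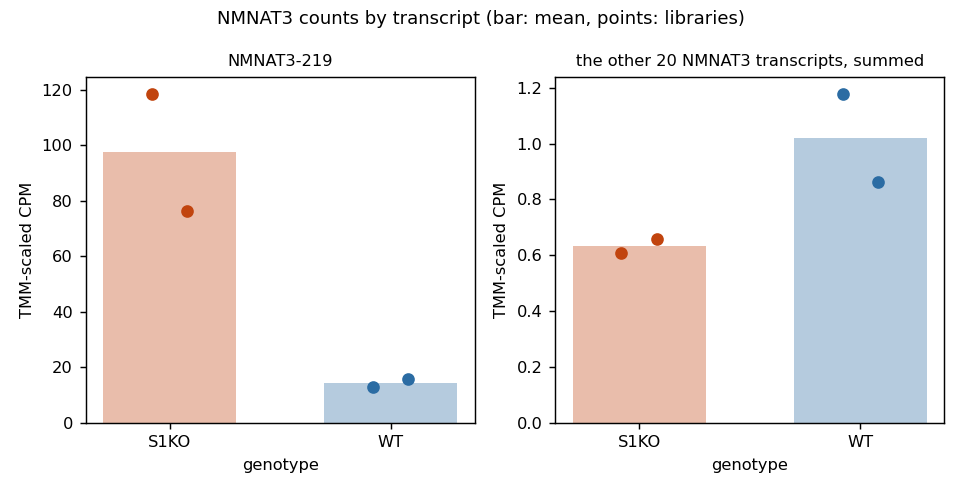
TMM-scaled CPM of NMNAT3-219 (left) and of the other 20 NMNAT3 transcripts summed (right), with bars at the group mean and a point per library. The vertical axes differ: NMNAT3-219 reached 119 CPM in S1KO, while the rest of the gene stayed at 0.607 to 1.18 CPM in all libraries and was lower in S1KO.

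The size of the NMNAT3 difference depended on the unit. Between the geometric means of the genotypes, the log2 ratio was 1.90 on unscaled counts, 2.63 on TMM-scaled CPM, 1.39 on TPM and 2.47 on TPM recomputed without mitochondrially encoded genes. NMNAT3 TPM was 10.1 and 10.8 in S1KO and 4.07 and 3.93 in WT. Without mitochondrial genes in the total it was 38.4 and 25.8 in S1KO and 5.57 and 5.82 in WT. Both S1KO libraries were above both WT libraries on each scale. Of the gap of 1.25 (log2) between CPM and TPM, 0.96 came from the scaling of the libraries and 0.29 from the effective length of the gene, the mean length over which its transcripts can yield fragments. That length was 6530 and 6455 bases in S1KO against 5059 and 5610 in WT, as the share of the long NMNAT3-219 differed. Its TPM share of NMNAT3 was 97.7% and 96.4% in S1KO against 70.1% and 80.1% in WT.

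Transcripts of other genes that hold the same words were described next, a set chosen by sequence after the NMNAT3 values were seen. Of the transcripts quantified in the deposited files, 60 from other genes shared at least 100 words with NMNAT3-219. They summed to 1197 and 1044 CPM in S1KO against 403.3 and 508.8 CPM in WT. Of the 47 with a mean of at least 1 CPM, 29 had both S1KO libraries above both WT libraries (61.7%, against 23.8% of all 38563 transcripts at that level) and 3 had both below. Their median log2 ratio was 0.85, against -0.08 over all such transcripts. As examples, C12orf45-204 stood at 197.4 and 160.4 CPM in S1KO and 44.4 and 44.0 CPM in WT. SOD2-210, a transcript of the mitochondrial superoxide dismutase gene, was at 115.2 and 91.9 CPM in S1KO and 25.3 and 30.3 CPM in WT. The S1KO libraries were the higher ones in both examples.

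At the level of genes, 87 genes had a GENCODE 29 transcript, quantified here or not, sharing at least 100 words with NMNAT3-219, and 48 of them were tested. Of these, 10 were called higher in S1KO and 0 lower (edgeR's quasi-likelihood test at an adjusted p of 0.05), or 20.8% higher, against 0.793% higher and 0.149% lower over all 15389 genes. Their median log2 fold change was 0.48, against -0.02 over all genes. With at least 300 shared words, 3 of 20 genes were called higher and the median was 0.49. Whether reads of other genes account for the level of NMNAT3-219 was not tested.

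**Figure D4:**
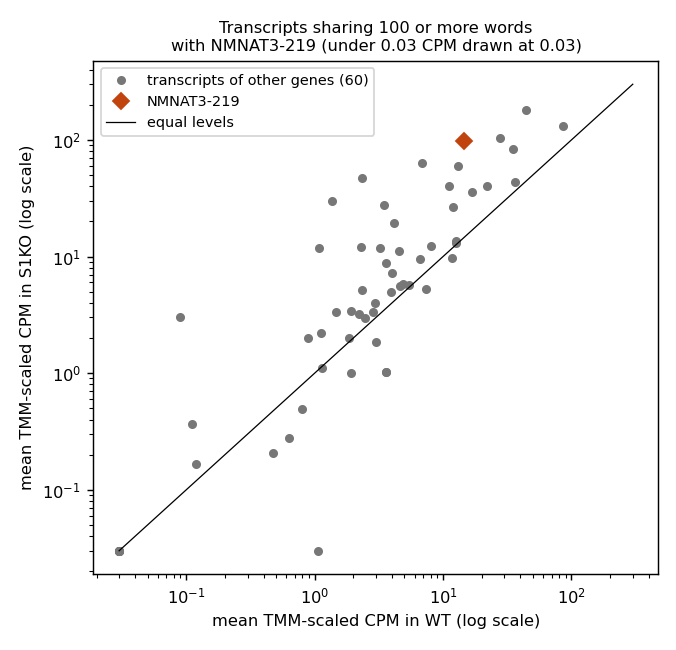
Mean TMM-scaled CPM in S1KO (vertical) and in WT (horizontal), both log axes, for 60 transcripts of other genes that share at least 100 words with NMNAT3-219 (grey) and for NMNAT3-219 itself (red diamond, 97.5 CPM in S1KO and 14.5 CPM in WT). The line marks equal levels, and most of the grey points lie above it.

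Among 12079 protein-coding genes with mean TPM of at least 1, the nearest in pattern to NMNAT3 were found by the Euclidean distance of centred log2 CPM over the 4 libraries. They were KIAA1328 (distance 0.147), GPNMB (0.316), NBPF19 (0.316), POU2AF1 (0.332) and TBC1D8B (0.363), with log2 fold changes of 2.70, 2.35, 2.49, 2.84 and 2.35. The leading transcript of KIAA1328 shared 202 words with NMNAT3-219 and that of TBC1D8B shared 625. GPNMB, which encodes a lysosomal glycoprotein of macrophages, had 0% of words in common with any other gene. The leading NBPF19 transcript had 88.9% of its words in other genes, above all in NBPF10, a close copy of the same family. POU2AF1, a transcriptional coactivator of B cells, had 6.74%. The pseudogene AC046134.1 within NMNAT3 and the pseudogene TRMT112P5 on its higher-coordinate side were at 0 counts in all 4 libraries.

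NMNAT3 apart, 8 members were tested, and edgeR called 0 of them (0.942% of all genes), with 0 at an unadjusted p under 0.05. DESeq2 also called 0 of the 8 (7.54% of all genes). Both S1KO libraries were above both WT libraries for NMNAT3, NMNAT1 and CD38 and below them for QPRT, so 4 of the 9 did not overlap, against 51.8% of all genes tested. The median log2 fold change of the 9 was -0.02, the same as over all genes to this precision. Without WT 1 the log2 fold change of NAMPT was -1.0 and that of NNMT 2.95, and without WT 2 they were 1.23 and -5.79. Some settings that kept all 4 libraries also changed the count of 0. With no filter edgeR called NNMT lower (776 of all 22537 genes lower). With limma on log2(TPM + 1) NAMPT and NNMT were called lower (2763 of all 15389 genes lower). On log2(TPM + 0.1) NNMT alone was (2522 of all 15389 genes lower).

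NMNAT1 (ENSG00000173614, chr1:9943428-9985501, plus strand), the nuclear enzyme, had 16.6 CPM in both S1KO libraries against 13.5 and 10.02 CPM in WT. The S1KO libraries were close together and above both WT libraries. The log2 fold change was 0.50 (SE 0.24, 95% interval -0.07 to 1.07, edgeR adjusted p = 0.312) and did not pass. NMNAT1-203, annotated as subject to nonsense-mediated decay, had 3.715 and 5.998 CPM in S1KO against 0.0 and 0.615 CPM in WT. NMNAT1-201, the main coding transcript, had 10.7 and 8.50 CPM in S1KO against 11.7 and 7.53 CPM in WT, and the genotypes overlapped. The lower NMNAT1-204 and NMNAT1-205 were also higher in both S1KO libraries. Counted over protein-coding transcripts only, the log2 fold change of NMNAT1 was -0.03. Of the words of NMNAT1-201, 25.03% also occur in other genes. NMNAT2 (ENSG00000157064, chr1:183248237-183418602, minus strand), the neuronal enzyme, had 5.1 and 4.0 counts in S1KO and 15.1 and 3.2 in WT, too few to test.

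NAMPT (ENSG00000105835, chr7:106248285-106286326, minus strand), the rate-limiting enzyme of nicotinamide salvage, had 41.6 and 30.6 CPM in S1KO against 15.4 and 72.0 CPM in WT. The S1KO values lay between the WT values, which were the lowest and the highest of the 4. The fitted log2 fold change was -0.28 (SE 0.63, 95% interval -1.80 to 1.24, edgeR adjusted p = 0.842). Each WT library decided the sign: the log2 fold change was -1.0 without WT 1 and 1.23 without WT 2. NAMPT-201 shared 1869 words (41.1%) with other genes, chiefly the processed pseudogene NAMPTP1. NAMPTP1 itself had 0.944 and 1.03 CPM in S1KO and 0.107 and 1.60 CPM in WT.

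NAPRT (ENSG00000147813, chr8:143574785-143578649, minus strand), which starts the route from nicotinic acid, had 42.1 and 47.4 CPM in S1KO against 43.6 and 50.2 CPM in WT. The libraries of the genotypes alternated. They differed by a log2 fold change of -0.07 (SE 0.17, 95% interval -0.49 to 0.35, edgeR adjusted p = 0.867). The gene has copies on alternate contigs that were summed with it, and NAPRT-203 shares 22.8% of its words, all on the opposite strand, with the overlapping AC067930.5.

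NADSYN1 (ENSG00000172890, chr11:71453109-71524107, plus strand), which amidates the product of that route to NAD, had 142.1 and 172.3 CPM in S1KO against 155.1 and 163.6 CPM in WT. The WT values lay between the S1KO values. Fitted over all 4 libraries, the log2 fold change was -0.02 (SE 0.17, 95% interval -0.44 to 0.40, edgeR adjusted p = 0.965). Most counts were assigned to NADSYN1-216, with 46.0% and 62.6% of the gene in S1KO and 60.2% and 58.5% in WT. The longer NADSYN1-201 held 30.6% and 18.2% in S1KO and 14.4% and 12.3% in WT, higher in both S1KO libraries and highest in S1KO 1.

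QPRT (ENSG00000103485, chr16:29679008-29698699, plus strand), the enzyme that brings the kynurenine pathway into NAD synthesis, had 237 and 232.4 CPM in S1KO against 287.7 and 281.7 CPM in WT. Both S1KO libraries were below both WT libraries, with little spread inside each genotype. Its log2 fold change was -0.28 (SE 0.16, 95% interval -0.67 to 0.12, edgeR adjusted p = 0.403), which did not pass. QPRT-202 held 91.0% and 89.6% of the counts in S1KO and 90.2% and 91.1% in WT, and 34.2% of its words occur in other genes.

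CD38 (ENSG00000004468, chr4:15778275-15853230, plus strand), the NAD glycohydrolase of the cell surface, had 1.21 and 1.22 CPM in S1KO against 0.250 and 1.02 CPM in WT. It was low in all libraries, on 18.0 and 26.1 estimated counts in S1KO and 7.0 and 32.4 in WT, and WT 1 was the lowest. The log2 fold change was 0.92 (SE 0.75, 95% interval -0.88 to 2.72, edgeR adjusted p = 0.547), and it was 0.25 without WT 1 and 2.26 without WT 2.

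SARM1 (ENSG00000004139, chr17:28364356-28404049, plus strand), the NAD hydrolase of axon degeneration, had 8.02 and 10.7 CPM in S1KO against 8.26 and 7.69 CPM in WT. S1KO 2 was the highest, and S1KO 1 lay between the WT libraries. Its log2 fold change was 0.23 (SE 0.27, 95% interval -0.43 to 0.89, edgeR adjusted p = 0.686). Its main transcript SARM1-208 (10277 bases as deposited) shared 46.1% of its words with other genes, with 4201 words on the opposite strand in SLC46A1, a folate transporter gene. SLC46A1 had 35.8 and 41.7 CPM in S1KO and 49.6 and 47.6 CPM in WT. Whether the counting used strand is not stated, and reads of SARM1 and SLC46A1 may not be separable.

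NNMT (ENSG00000166741, chr11:114257787-114313285, plus strand), which methylates nicotinamide and so removes it from salvage, had 0.067 and 0.940 CPM in S1KO, against 31.4 CPM in WT 1 and 0.064 CPM in WT 2. It was high in WT 1 alone, and the other WT library was the lowest of the 4. Its log2 fold change was -4.84 (SE 2.12, 95% interval -9.95 to 0.27, edgeR adjusted p = 0.278). It was 2.95 without WT 1 and -5.79 without WT 2. WT 1 was also the library with mesenchymal markers: COL1A1 had 2.56 and 11.7 CPM in S1KO, against 2709 CPM in WT 1 and 0.638 CPM in WT 2. The part of such cells in the NNMT value was not tested.

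The members differed widely in level per length. By mean TPM over the S1KO libraries the order was QPRT (88.4 ± 27.4), NADSYN1 (62.9 ± 29.9), NAPRT (36.1 ± 19.2), NMNAT3 (10.5 ± 0.48), NMNAT1 (9.10 ± 4.10), NAMPT (7.79 ± 1.45), SARM1 (1.24 ± 0.15), NNMT (0.55 ± 0.74), CD38 (0.17 ± 0.06) and NMNAT2 (0.035 ± 0.003) (SD, n = 2). In WT the order was QPRT (202.8 ± 18.4), NADSYN1 (133.8 ± 2.6), NAPRT (66.5 ± 3.6), NNMT (32.6 ± 45.9), NAMPT (30.7 ± 32.0), NMNAT1 (10.3 ± 1.0), NMNAT3 (3.998 ± 0.095), SARM1 (2.14 ± 1.42), CD38 (0.18 ± 0.16) and NMNAT2 (0.088 ± 0.088). In S1KO, neighbours overlapped between QPRT, NADSYN1 and NAPRT, between NMNAT3, NMNAT1 and NAMPT, and between NNMT and CD38. In WT they overlapped between NAPRT, NNMT, NAMPT and NMNAT1, and between CD38 and NMNAT2. NMNAT3 thus ranked 4 of the 10 in S1KO and 7 of the 10 in WT. TPM of nuclear genes was lower in S1KO overall: on log2(TPM + 1) the median difference over all genes was -0.78, against -0.02 on the TMM scale. The lower TPM of QPRT, NADSYN1 and NAPRT in S1KO stands beside that shift. Without mitochondrial genes in the total, NADSYN1 was at 158.7 and 200.9 TPM in S1KO and 185.6 and 195.5 TPM in WT, and QPRT at 261.7 and 257.4 TPM in S1KO and 295.4 and 281.2 TPM in WT.

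The rest of NAD metabolism was read from a list of 56 further genes, of which 52 were tested. None was called by edgeR at an adjusted p of 0.05, against 0.942% of all genes. An unadjusted p under 0.05 was found for 8 of the 52, against 2993 of all 15389 genes. The direction was up in S1KO for 25 and down for 27, with a median log2 fold change of -0.02, as over all genes. Both S1KO libraries were above both WT libraries for 15 of the 52 and below for 13, against 26.0% above and 25.7% below over all genes. DESeq2 called 3 of the 52, KYNU and TDO2 higher and SLC12A8 lower, against 4.26% of all genes higher and 3.28% lower with that tool. On TPM with all genes in the total, where the median over all genes was -0.78, the positive log2 fold changes of NOCT, NADK, SLC25A51, NNT, PARP1, PARP11 and OARD1 given below turned negative, and so did those of AFMID (0.21), SIRT2 (0.25) and BST1 (0.18).

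Of the 8 kynurenine pathway genes, 6 had positive and 2 negative fold changes, their median was 0.42 (log2), and 0 were called by edgeR. KYNU, which encodes kynureninase, had 55.1 and 37.7 CPM in S1KO against 19.9 and 20.4 CPM in WT. Both S1KO libraries were the higher ones (log2 fold change 1.20, SE 0.23, edgeR adjusted p = 0.0776, DESeq2 adjusted p = 0.000474). With single libraries left out, the log2 fold change of KYNU ranged from 0.89 to 1.43. TDO2, the tryptophan dioxygenase, had 11.7 and 5.03 CPM in S1KO against 0.465 and 2.62 CPM in WT. The groups did not overlap, but each spread widely (2.43, SE 0.81, edgeR adjusted p = 0.190, DESeq2 adjusted p = 0.0276). The log2 fold change of TDO2 was 1.66 without WT 1, 4.14 without WT 2 and 1.70 without S1KO 1. AFMID, the formamidase of the pathway, had 14.8 and 18.6 CPM in S1KO and 15.4 and 13.5 CPM in WT, and overlapped. Of the remaining genes, KMO, IDO1 and IDO2 had log2 fold changes of 0.63, 1.57 and 0.21, and HAAO and ACMSD of -0.41 and -0.37. IDO1 was low, at 3.37 and 3.71 CPM in S1KO against 0.322 and 2.04 CPM in WT (95% interval -0.33 to 3.48, edgeR adjusted p = 0.338). Without WT 2, which left the lowest library, WT 1, as the only control, the log2 fold change of IDO1 was 3.44.

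In the salvage of nicotinamide riboside and nucleosides, all 5 genes tested had negative log2 fold changes, with a median of -0.35 and 0 called by edgeR. SLC12A8, reported as a carrier of nicotinamide mononucleotide in mice, had 6.81 and 6.54 CPM in S1KO against 10.8 and 32.1 CPM in WT. WT 2 was far above the rest (log2 fold change -1.68, SE 0.50, edgeR adjusted p = 0.153, DESeq2 adjusted p = 0.0155). Its log2 fold change was -0.69 without WT 2 and -2.27 without WT 1. NT5C3A, a pyrimidine nucleotidase, was at 5.19 and 5.27 CPM in S1KO and 8.47 and 8.11 CPM in WT (-0.66, SE 0.28, edgeR adjusted p = 0.258). NT5C2, a purine nucleotidase, had 50.4 and 45.4 CPM in S1KO and 49.5 and 52.5 CPM in WT and overlapped.

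All 4 genes of NAD kinases and NADP phosphatases had positive log2 fold changes, of 0.21 to 0.71, with 0 called. NADK, the cytosolic NAD kinase, had 177.6 and 192.7 CPM in S1KO and 137.8 and 156.9 CPM in WT, and NOCT, an NADP phosphatase, had 6.74 and 7.05 CPM in S1KO and 4.72 and 3.70 CPM in WT. For both the S1KO libraries were the higher ones, with edgeR adjusted p = 0.339 and 0.283. In mitochondria, SLC25A51, the NAD carrier of the inner membrane, had 7.21 and 7.85 CPM in S1KO against 4.08 and 4.66 CPM in WT. Its log2 fold change was 0.79 (SE 0.30, edgeR adjusted p = 0.225). NNT, the transhydrogenase of that membrane, had 43.0 and 34.4 CPM in S1KO against 29.02 and 32.7 CPM in WT (0.32, SE 0.19, edgeR adjusted p = 0.407), and its sign turned with an offset for effective length (-0.35). The NAD(P)H repair and hydrolysis genes NAXE, NAXD, NUDT12 and NUDT13 all had negative log2 fold changes, of -0.52 to -0.08, and none was called.

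Among the consumers of NAD, the 7 sirtuins ranged from -0.26 to 0.25 in log2 fold change and none was called. SIRT1 had 20.6 CPM in both S1KO libraries and 23.4 and 25.7 CPM in WT, while SIRT2 and SIRT6 overlapped between genotypes. Of 16 ADP-ribosyltransferases, 6 had positive and 10 negative log2 fold changes, and none was called. PARP1, the main polymerase of the DNA damage response, had 90.9 and 67.2 CPM in S1KO against 59.4 and 41.2 CPM in WT, and PARP11, a mono-ADP-ribosyltransferase, had 13.01 and 12.035 CPM in S1KO against 4.47 and 7.47 CPM in WT. Both were higher in both S1KO libraries, with log2 fold changes of 0.65 and 1.07 and edgeR adjusted p = 0.222 and 0.159. With single libraries left out, the log2 fold change ranged from 0.40 to 0.94 for PARP1 and from 0.74 to 1.48 for PARP11. Others of the family had negative log2 fold changes, such as TIPARP at -0.46 (SE 0.53) and PARP14 at -0.40 (SE 0.23). TIPARP overlapped, at 19.1 and 12.5 CPM in S1KO and 10.2 and 33.4 CPM in WT. PARP14 had 37.4 and 33.3 CPM in S1KO and 37.5 and 56.0 CPM in WT. For both genes WT 2 was the highest library. Without WT 1, which left WT 2 as the only control, TIPARP was at -1.08 and PARP14 at -0.665. PARP6, of the same family, was at 83.0 and 100.3 CPM in S1KO and 82.5 and 103.3 CPM in WT. Of 5 genes that remove ADP-ribose, OARD1 had 21.4 and 18.3 CPM in S1KO and 11.5 and 14.6 CPM in WT (0.60, SE 0.23, edgeR adjusted p = 0.220), and ADPRS had 22.0 and 26.1 CPM in S1KO and 32.4 and 26.5 CPM in WT (-0.29, SE 0.20, edgeR adjusted p = 0.478). BST1, the relative of CD38 that also makes cyclic ADP-ribose, was at 0.741 and 1.22 CPM in S1KO and 1.14 and 0.606 CPM in WT and overlapped.

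**Figure D5:**
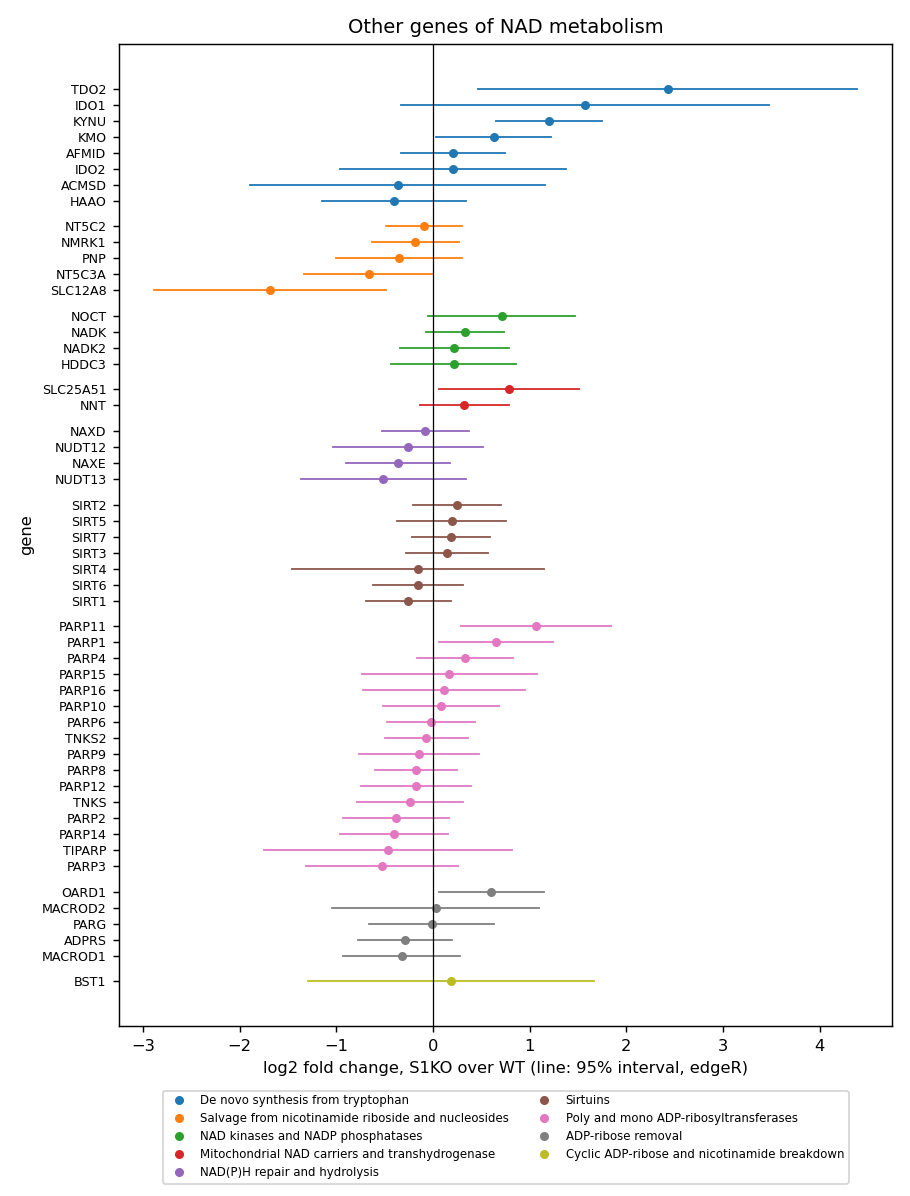
Log2 fold change, S1KO over WT, of 52 further NAD metabolism genes with the 95% interval of edgeR's quasi-likelihood fit, grouped by role. The kynurenine pathway genes TDO2 (2.43), IDO1 (1.57) and KYNU (1.20) lie farthest to the right and SLC12A8 (-1.68) farthest to the left, and no gene passed the adjusted threshold.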

How the data were processed

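Poly-A RNA of 4 libraries was sequenced as paired 150-base reads, per the labels. Reads were quantified with kallisto on hg38, per the submitters' processing notes; not given in the sources used here are its version, the transcript set and the use of strand. Per the file headers, the authors deposited an estimated count and a TPM for each transcript, with its effective length. Estimated counts divide a read among the transcripts it fits, and TPM divides by length and by the library total.

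Transcripts were summed to genes with GENCODE 29 (GRCh38): 169797 matched by identifier, 15521 by symbol, and 3435 had no gene name (0.323% to 0.643% of counts) and were left out. Sums were rounded to whole numbers, filtered with filterByExpr (15389 of 35609 genes kept), scaled by TMM (factors 0.653 and 0.957 in S1KO, 1.313 and 1.218 in WT) and tested with edgeR 4.0.16 (quasi-likelihood, two-sided, genotype as the only term, Benjamini-Hochberg over all genes tested, R 4.3.3). The fit was also run on counts simulated with the dispersion estimated from these libraries, and the outcome is not given here. In each pair of libraries at least 263 genes lay over 4-fold apart, so none repeated another. Alternatives used DESeq2 1.42.0 and limma 3.58.1, other filters, scalings and pseudocounts, and each library left out. Where one group is left with 1 library, it is assumed to vary like the other.

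The members and lists were chosen with earlier results of these data known. The genes named are INPP5D, the members, in each role group of the further list the 2 of smallest p and the 1 of highest mean TPM, the neighbours of NMNAT3, and the 5 genes nearest to it in pattern; any other gene was named after its values were seen. A gene and a sequence that fall under these choices are not reported here. Shared words were counted with transcript sequences of GENCODE 29, after the transcript values were seen.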

Additional observations from a re-analysis of the deposited data

How the results depend on the processing

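The count of 145 genes called (122 higher, 23 lower in S1KO) moved to 1160 with DESeq2, 1362 with no filter, 224 with the stricter filter, 298 with limma on TPM without mitochondrial genes, 21 on protein-coding transcripts only, 2896 with limma on log2(TPM + 1) (133 higher, 2763 lower) and 2642 on log2(TPM + 0.1) (120 higher, 2522 lower). Leaving out single libraries gave 0 to 1979 calls; the 0 came without either S1KO library, where 1366 and 1849 genes had an unadjusted p under 0.05. NMNAT3 apart, 0 members were called at first, and the changes listed next are those with all 4 libraries kept. With no filter NNMT was called lower. With limma NAMPT and NNMT were called lower on log2(TPM + 1), and NNMT on log2(TPM + 0.1). The other NAD genes called numbered 3 with DESeq2, 3 with no filter, 5 and 4 with limma on log2(TPM + 1) and log2(TPM + 0.1), and 0 to 6 with single libraries left out. By TPM in place of counts, the share of NMNAT3-219 was 97.1% in S1KO and 75.1% in WT, against 99.3% in S1KO and 93.3% in WT by counts. The log2 fold change of NMNAT3 was 1.20 to 2.93 over 15 alternatives. With the replicate number as a block, 0 genes and 0 members were called by edgeR (2891 genes at an unadjusted p under 0.05), and NAMPT turned to 0.086; the numbers do not pair the libraries, whose same-numbered deviations had a correlation of 0.025. Of 539 values for 36 genes under the alternatives, 434 kept their direction and their side of the threshold, 30 lost the call, 23 gained one and 52 changed sign, in 22 genes; the cause was not tested. NMNAT3 was among these only without NMNAT3-219 (-0.68). With limma on log2(TPM + 1) the log2 fold changes that turned were NMNAT1 -0.22, CD38 -0.014, SARM1 -0.41, AFMID -0.77, NOCT -0.16, NADK -0.90, SLC25A51 -0.14, NNT -1.22, SIRT2 -0.56, PARP11 -0.079, PARP1 -0.44, OARD1 -0.56 and BST1 -0.088. With limma on log2(TPM + 0.1) they were NMNAT1 -0.24, SARM1 -0.58, AFMID -0.80, NOCT -0.21, NADK -0.91, SLC25A51 -0.18, NNT -1.34, SIRT2 -0.57, PARP11 -0.12, PARP1 -0.45, OARD1 -0.60 and BST1 -0.30. With protein-coding transcripts only they were NMNAT1 -0.029, NADSYN1 0.10 and NUDT13 0.11. With an offset for effective length they were NAPRT 0.013, NT5C2 0.19, NNT -0.35 and PARP6 0.059. With limma on TPM without mitochondrial genes they were NAPRT 0.09, NT5C2 0.27, NNT -0.26 and PARP6 0.15. With the stricter filter they were NADSYN1 0.007 and PARP6 0.006. With single libraries left out, the log2 fold changes that turned ranged from -1.0 to 1.23 for NAMPT, -0.17 to 0.04 for NAPRT, -0.18 to 0.10 for NADSYN1, -0.008 to 0.41 for SARM1, -7.79 to 2.95 for NNMT, -0.37 to 0.01 for SIRT6, -0.18 to 0.15 for PARP6 and -0.25 to 0.71 for BST1. Low counts limit what can be read from CD38, NMNAT2 and the short NMNAT3 transcripts. A permutation test of 2 libraries against 2 cannot reach the threshold and was not used.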
